A study of Mus musculus with 3 samples.

Results

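The genes described here control the G1 phase of the cell cycle: the D cyclins Ccnd1, Ccnd2 and Ccnd3, the kinases Cdk4 and Cdk6, the Cip/Kip inhibitors Cdkn1a, Cdkn1b and Cdkn1c, and the INK4 inhibitors Cdkn2c and Cdkn2d. They were taken by symbol from the deposited expression table, and 10 of 10 were found among its 19381 genes. RNA sequencing was done on incisor mesenchyme, taken from the digested proximal end of the mouse incisor, in mice of genotype Gli1-CreER;Arid1afl/fl;Arid1bfl/fl, called DKO. Floxed Arid1a and Arid1b are therefore open to deletion only in cells in which the Gli1 promoter has driven the tamoxifen-activated Cre, and in their progeny. All animals were 1 month old, received tamoxifen by intraperitoneal injection at 1.5 mg per 10 g of body weight, and were sampled 4 days after induction. The 3 DKO libraries form the only group, so nothing here compares the double mutant with a control. Whether each library is a separate animal is not stated in the labels. Each SD therefore covers only how far these 3 libraries differ, and part of that can be technical. Each p covers only these 3 libraries as well. It takes its smallest value whenever all 3 differences share a direction, whatever their spread.

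D cyclins are made when growth factors reach a cell, and they bind and activate the kinases CDK4 and CDK6. The active kinase phosphorylates the retinoblastoma protein and its relatives, which then release E2F transcription factors and let the cell enter S phase. INK4 proteins block CDK4 and CDK6 themselves, while Cip/Kip proteins bind assembled cyclin and kinase complexes, above all those of CDK2. In the proximal incisor, slowly dividing mesenchymal stem cells feed a pool of rapidly dividing progenitors, which leave the cycle as they become odontoblasts or pulp cells.

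RefSeq promoter windows of GRCm38.p6, each 250 bases before to 50 bases after a start site, were held for 7 of the 10 genes, 10 windows in all. Windows of both kinases and both INK4 inhibitors are shown, since these classes gave the widest and the narrowest difference in level. Of the 2 windows of Cdkn2c, the one farther upstream is printed. Capitals mark matches on either strand to the E-box CACGTG, the GC box GGGCGG, the CCAAT box CCAAT, the TATA box TATAAA and the E2F sites TTTCCCGC, TTTGGCGC, TTTCGCGC and TTTGCCGC.
Cdk4, chr10:127063285-127063584, plus strand: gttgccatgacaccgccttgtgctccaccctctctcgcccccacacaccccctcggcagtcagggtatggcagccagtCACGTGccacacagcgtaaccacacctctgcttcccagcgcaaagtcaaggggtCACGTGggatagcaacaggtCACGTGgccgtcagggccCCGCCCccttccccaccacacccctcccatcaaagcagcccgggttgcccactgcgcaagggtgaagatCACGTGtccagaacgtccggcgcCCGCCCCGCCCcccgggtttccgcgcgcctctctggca
Cdk6, chr5:3343643-3343942, plus strand: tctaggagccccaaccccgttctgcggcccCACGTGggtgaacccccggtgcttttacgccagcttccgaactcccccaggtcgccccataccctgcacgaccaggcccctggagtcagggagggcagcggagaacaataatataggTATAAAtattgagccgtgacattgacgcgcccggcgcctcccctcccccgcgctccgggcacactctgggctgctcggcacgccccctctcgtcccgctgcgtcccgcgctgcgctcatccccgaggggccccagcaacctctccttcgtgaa
Cdkn2c, chr4:109666707-109667006, minus strand: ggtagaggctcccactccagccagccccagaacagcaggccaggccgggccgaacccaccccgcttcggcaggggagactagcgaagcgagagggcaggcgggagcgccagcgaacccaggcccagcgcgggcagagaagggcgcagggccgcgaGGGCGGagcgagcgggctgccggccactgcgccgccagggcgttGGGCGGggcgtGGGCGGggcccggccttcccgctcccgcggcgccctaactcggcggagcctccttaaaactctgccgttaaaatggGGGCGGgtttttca
Cdkn2d, chr9:21291160-21291459, minus strand: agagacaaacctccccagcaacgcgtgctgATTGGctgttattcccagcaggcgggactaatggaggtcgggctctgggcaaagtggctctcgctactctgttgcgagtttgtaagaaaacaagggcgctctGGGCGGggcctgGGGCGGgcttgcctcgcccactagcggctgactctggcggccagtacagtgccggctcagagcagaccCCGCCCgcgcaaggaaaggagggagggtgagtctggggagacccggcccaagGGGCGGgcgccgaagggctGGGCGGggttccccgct

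The Cdk4 window held 4 matches to the E-box, the sequence that MYC and its partner MAX bind, and 3 to the GC box, of which 2 shared a base. The E-boxes began at positions -172, -118, -98 and -11 from the start site. The Cdk6 window held 1 E-box, which began at -220, 1 match to the TATA box, which began at -103, and no GC box. Of all 32851 RefSeq windows of the same length, 7.15% held an E-box and 8 held 4 or more of them. The GC box, bound by SP1 and related factors, occurred 4 times in the printed window of Cdkn2c and 5 times in that of Cdkn2d, against 35.7% of all windows with at least 1 and 5.49% with 4 or more. The other Cdkn2c window (chr4:109665323-109665622, minus strand) held no GC box, 1 E-box and 1 CCAAT box. The letters of the E2F sites were in none of the 10 windows held for these genes and in 2.26% of all windows. The CCAAT box was in 37.4% and the TATA box in 13.6% of all windows. These matches describe the letters of the windows and say nothing of binding.

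Levels are given as the authors' normalized counts, whose upper quartile is the same in each library, first for replicate 1, then 2, then 3, and as mean ± SD over n = 3. All 10 genes had a mean of at least 10, a level that 10388 genes reached. Means ran from 14.4 for Cdkn2d to 501 for Ccnd2, and their median was 112, against 41.1 over those 10388 genes. In bulk tissue, fewer cells that express a gene cannot be told apart from less RNA per cell.

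**Figure D1:**
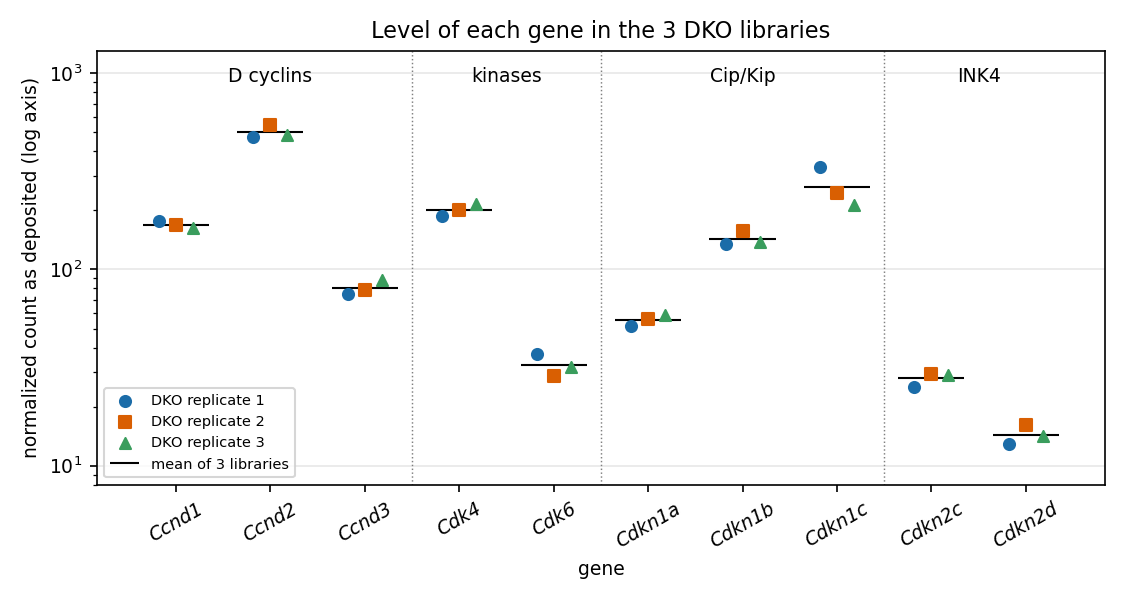
Normalized count of each of the 10 G1 genes (log axis) in the 3 DKO libraries, grouped by class. Points are libraries and the bar is their mean. The libraries lie close together for each gene, with the widest spacing for Cdkn1c, at 334, 246 and 212.

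Ccnd2 was the D cyclin with the most reads. Ccnd2 (chromosome 6, 127125162 to 127152193 in mm10) was measured at 471, 546 and 485 (501 ± 39.9, SD, n = 3), highest in replicate 2. Only 159 of the 19381 genes had a higher mean. Ccnd1 (chromosome 7, 144929931 to 144939925), the cyclin most often named as the sensor of growth signals, stood at 176, 168 and 163 (169 ± 6.83). Its coefficient of variation, 4.04%, was the smallest among the 10 genes. Ccnd3 (chromosome 17, 47505051 to 47599691) was at 74.9, 78.5 and 88.7 (80.7 ± 7.17), highest in replicate 3. No library of one D cyclin overlapped any library of another on this scale.

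Levels of different genes were compared after division by the length of all annotated exons, 4709 bases for Ccnd1, 9409 for Ccnd2 and 8775 for Ccnd3. Per kilobase of exon, Ccnd2 stood at 53.2 ± 4.24, Ccnd1 at 35.9 ± 1.45 and Ccnd3 at 9.20 ± 0.818 (SD, n = 3). Ccnd2 made up 52.2%, 56.6% and 53.6% of the D cyclin total in replicates 1 to 3, Ccnd1 38.9%, 34.7% and 35.9%, and Ccnd3 8.89%, 8.71% and 10.5%. Within libraries Ccnd1 lay below Ccnd2 by a log2 difference of -0.57 ± 0.14 per kilobase, in 3 of 3 libraries. The level of Ccnd3 depends on its length. Ccnd3 has 16 annotated coding transcripts, and the longest of them spans 2113 bases of exon. Divided by the longest coding transcript of each gene, the mean share of Ccnd3 was 23.5% in place of 9.37%, and Ccnd1 exceeded Ccnd3 by 1.18-fold in place of 3.91-fold.

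Cdk4 was far more abundant than Cdk6. Cdk4 (chromosome 10, 127063534 to 127067920) stood at 187, 200.2 and 215 (201 ± 13.9, SD, n = 3), lowest in replicate 1 and highest in replicate 3. Cdk6 (chromosome 5, 3341485 to 3531008), the close relative best known from blood cells, stood at 37.1, 28.6 and 31.7 (32.5 ± 4.32), highest in replicate 1 and lowest in replicate 2. Every library of Cdk4 lay above every library of Cdk6. Cdk6 is a long transcript, with 13989 bases of exon against 3249 for Cdk4. Per kilobase, Cdk4 exceeded Cdk6 by a log2 difference of 4.74 ± 0.26, or 26.7-fold, in 3 of 3 libraries. Cdk4 made up 95.6%, 96.8% and 96.7% of the kinase total per kilobase.

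The antisense partner of Cdk4 shares exon sequence with it. Tspan31, a tetraspanin gene on the other strand, overlaps Cdk4 over 641 exon bases and stood at 84.7, 89.5 and 88.9. Likewise LTO1 shares 1100 exon bases with Ccnd1, at 19.4, 14.7 and 17.0, and Bysl shares 361 with Ccnd3, at 13.1, 10.7 and 14.1. The strand setting of the counting is not given in the sources used here, so reads from the shared bases cannot be assigned.

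**Figure D2:**
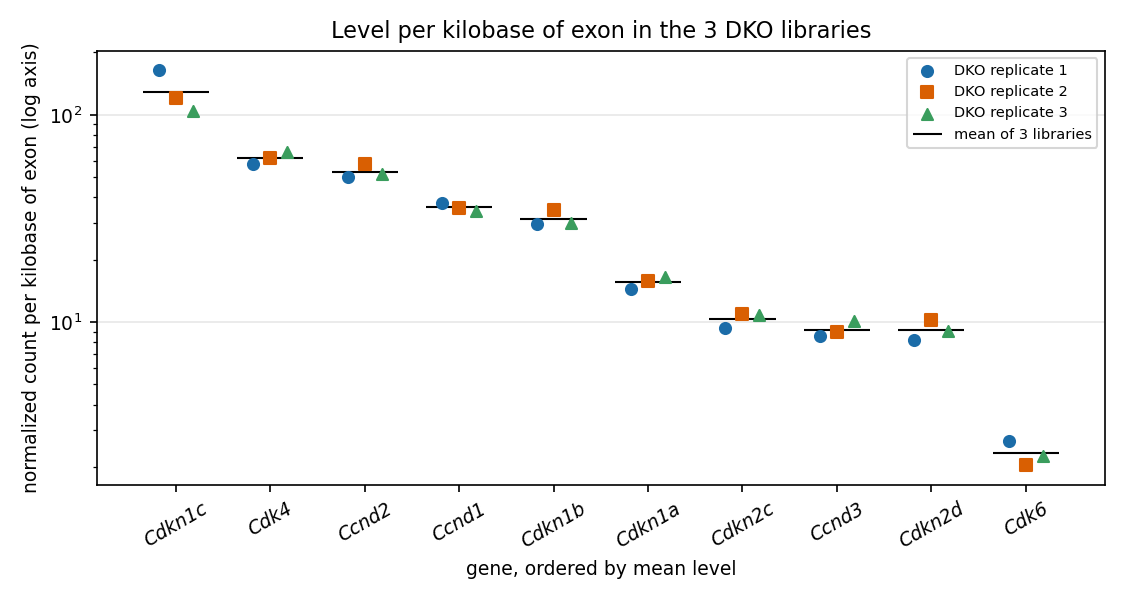
Normalized count per kilobase of exon (log axis) for the 10 G1 genes, ordered by mean. Points are the 3 DKO libraries and bars their mean. Cdkn1c leads, at 129 on average, and Cdk6 is last, at 2.32.

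Among the Cip/Kip inhibitors, Cdkn1c was the most abundant and the most variable. Cdkn1c (chromosome 7, 143458339 to 143461050), which encodes p57, an imprinted inhibitor associated with exit from the cycle during development, stood at 334, 246 and 212 (264 ± 63.0, SD, n = 3). Replicate 1 was the high library, and the other two lay closer to each other than to it. The highest library was 1.58 times the lowest. Cdkn1b (chromosome 6, 134920401 to 134925513), which encodes p27, an inhibitor that accumulates in resting cells, was at 135, 157 and 137 (143 ± 12.3). Cdkn1a (chromosome 17, 29090976 to 29100727), which encodes p21 and is a classical target of p53, was at 51.5, 56.1 and 58.3 (55.3 ± 3.46). The order Cdkn1c, Cdkn1b, Cdkn1a held in each library without overlap.

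Per kilobase of exon the same order was seen. Cdkn1c stood at 129 ± 30.9, Cdkn1b at 31.5 ± 2.70 and Cdkn1a at 15.6 ± 0.975 (SD, n = 3). Cdkn1c was 78.7%, 70.5% and 69.0% of the Cip/Kip total, with the largest share in replicate 1. Cdkn1b lay below Cdkn1c by a log2 difference of -2.02 ± 0.39 and Cdkn1a below Cdkn1b by -1.01 ± 0.13, each in 3 of 3 libraries. The second difference shrank when the longest coding transcript was used, from 2.02-fold to 1.18-fold, and Cdkn1a then held 13.8% of the Cip/Kip total in place of 9.04%. An antisense gene, Gm44732, shares 625 exon bases with Cdkn1c. It stood at 4.66, 2.80 and 2.03, highest in replicate 1 and lowest in replicate 3, as Cdkn1c did.

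The INK4 inhibitors were low and close to each other. Cdkn2c (chromosome 4, 109660876 to 109667189), which encodes p18, stood at 25.2, 29.3 and 29.1 (27.9 ± 2.31, SD, n = 3). Cdkn2d (chromosome 9, 21288410 to 21291407), which encodes p19 of the INK4 family, stood at 12.8, 16.1 and 14.2 (14.4 ± 1.62). Both were lowest in replicate 1 and highest in replicate 2. On the scale of deposited values the genes did not overlap, and per kilobase the gap narrowed to a log2 difference of 0.19 ± 0.09, with Cdkn2c higher in 3 of 3 libraries. Cdkn2c made up 53.5%, 51.6% and 54.6% of this pair per kilobase. The remaining INK4 genes were scarcer. Cdkn2a was at 0.466, 0.412 and 0.512, and Cdkn2b, a known target of TGF-beta signalling, at 1.14, 2.34 and 1.35. The Cdkn2a value sums its INK4a and ARF transcripts.

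**Figure D3:**
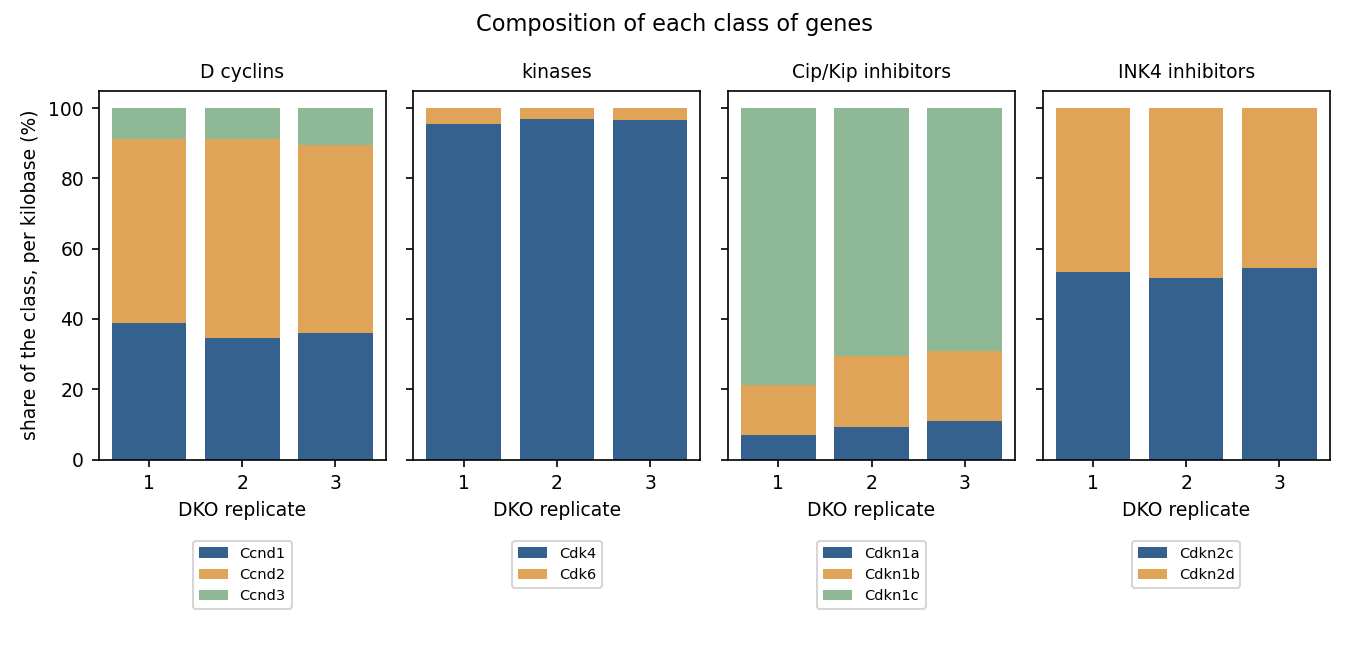
Share of each gene in the summed level per kilobase of its class (percent, stacked to the whole) in the 3 DKO replicates. Cdk4 holds at least 95.6% of the kinase total and Cdkn1c at least 69.0% of the Cip/Kip total, while Cdkn2c and Cdkn2d are nearly even.

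Ordered by level per kilobase over all classes, the genes ran Cdkn1c, Cdk4, Ccnd2, Ccnd1, Cdkn1b, Cdkn1a, Cdkn2c, Ccnd3, Cdkn2d and Cdk6. Of the 9 pairs of neighbours, 8 kept their order in 3 of 3 libraries. The order was set by the mean of the same 3 libraries, so this count describes only how alike they are. The exception was Ccnd3 against Cdkn2d, with a log2 difference of 0.01 ± 0.18, smaller than its spread. The narrowest gaps after it were Cdkn2c over Ccnd3 (0.17 ± 0.10), Ccnd1 over Cdkn1b (0.19 ± 0.15) and Cdk4 over Ccnd2 (0.22 ± 0.14). By an exact permutation of signs, two-sided, each of those 8 pairs had p = 0.25, the smallest that n = 3 allows, and Benjamini-Hochberg adjustment over the 9 pairs gave 0.281. The 8 pairs of genes within a class, each alike in direction in 3 of 3 libraries, also had an exact p of 0.25, and 0.25 after adjustment. With the longest coding transcript, Ccnd3 moved from place 8 to place 5.

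The G1 genes varied between libraries about as much as genes at large, whose median level was lower (41.1 against 112). No set of genes matched for level was compared. The median ratio of the highest to the lowest library was 1.16 over the 10 genes and 1.15 over the 10388 genes that reached a mean of 10. The median SD of log2(value + 1) was 0.12 over the 10 and 0.10 over those 10388. A ratio of at least 1.5 was found for 1 of the 10, Cdkn1c, and for 6.15% of those 10388. Where a mean of at least 100 was required, it was found for 1 of 5 G1 genes and for 3.90% of 2105 genes. Cdk6 (1.30) and Cdkn2d (1.25) came next, and the other 7 ran from 1.08 for Ccnd1 to 1.18 for Ccnd3. The ratio of Cdkn1c was 1.16 without replicate 1, 1.36 without replicate 3 and 1.58 without replicate 2. If the smallest value in each column stands for 1 read, which could not be settled, counting alone would give a coefficient of variation from 0.729% for Ccnd2 to 4.32% for Cdkn2d.

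**Figure D4:**
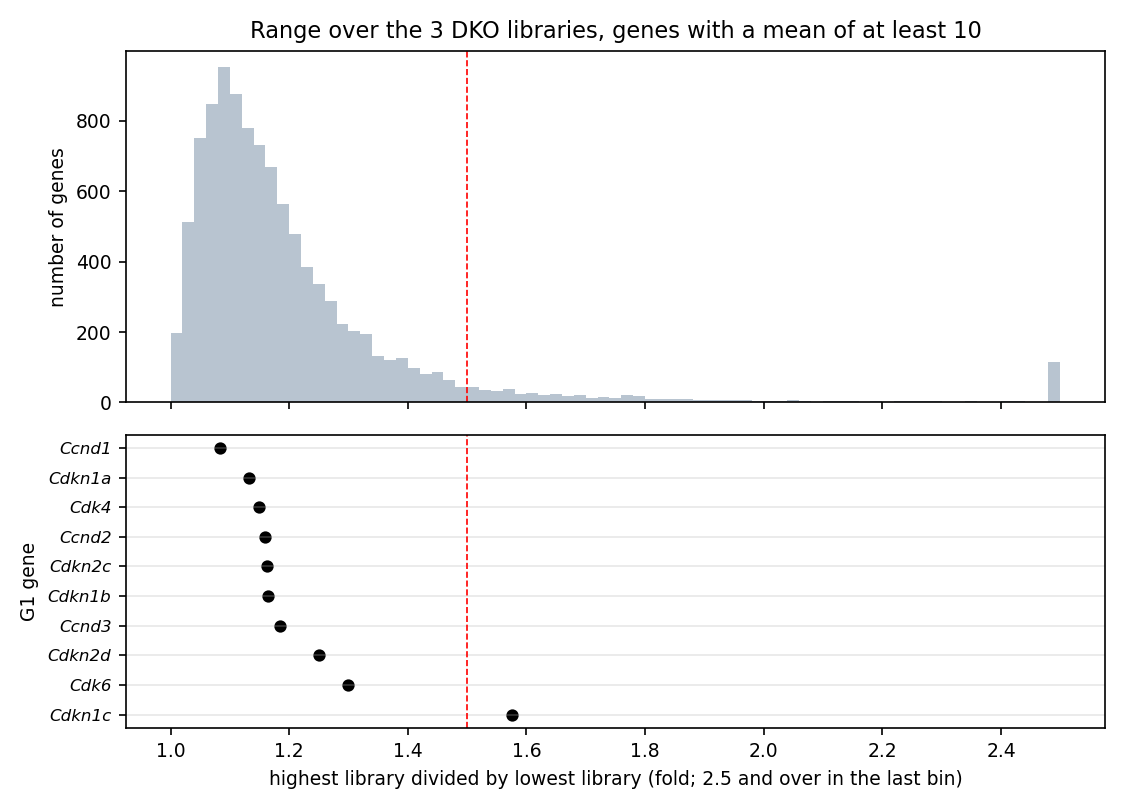
Top, number of genes by the ratio of the highest to the lowest of the 3 DKO libraries, for 10388 genes with a mean of at least 10. Bottom, the same ratio for each G1 gene; the dashed line marks 1.5, which Cdkn1c alone among the 10 passes, at 1.58.

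Replicate 1 held the lowest value of most of these genes. It was lowest for 7 of the 10, namely Ccnd2, Ccnd3, Cdk4, Cdkn1a, Cdkn1b, Cdkn2c and Cdkn2d, and for 38.1% of all genes. Here and below, shares and medians of all genes cover those with a mean of at least 10, unless another level is given. Of these 7, Ccnd2, Cdkn1b, Cdkn2c and Cdkn2d were highest in replicate 2, a pattern of 17.5% of all genes, and Ccnd3, Cdk4 and Cdkn1a in replicate 3, a pattern of 20.6%. Cdkn1c, Cdk6 and Ccnd1 went the other way and were highest in replicate 1, as were 31.2% of all genes. Replicate 2 was highest for 4 of the 10 and for 34.2% of all genes, and replicate 3 for 3 of the 10 and 34.6%. Only Cdk6 was lowest in replicate 2 (27.8% of all genes), and Cdkn1c and Ccnd1 were lowest in replicate 3 (34.2%). The median deviation of the 10 genes from their own means was -0.09 in replicate 1, 0.01 in replicate 2 and -0.02 in replicate 3 on the log2 scale, against -0.01, 0.01 and 0.00 over all genes. These shifts are small, and no test was made of them. When libraries were rescaled without ribosomal RNA and mitochondrial genes, 6 of the 10 were lowest in replicate 1, against 33.5% of all genes. With libraries rescaled to equal totals it was 7 of the 10, against 46.4%. Among genes with a mean of at least 100, as deposited, replicate 1 was lowest for 3 of 5 G1 genes and for 980 of 2105 genes.

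**Figure D5:**
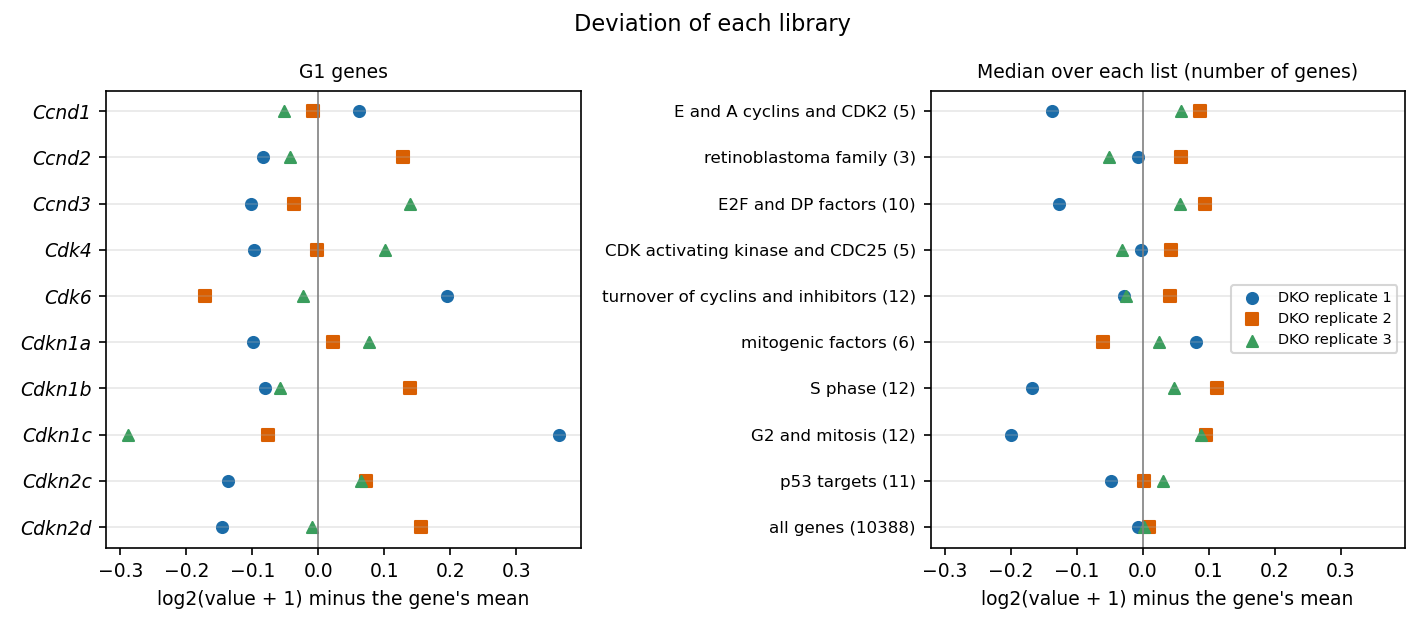
Left, deviation of log2(value + 1) from the mean of the gene for each G1 gene and DKO replicate. Right, the median deviation over each list, with the number of its genes at a mean of at least 10. Replicate 1 lies lowest for 7 of the 10 G1 genes, while Cdkn1c lies highest there. It has the lowest median for the S phase, G2 and mitosis, E2F, E and A cyclin and p53 lists. The turnover list is lowest there by a narrow margin, at -0.028 against -0.025 in replicate 3. The median of all genes is also lowest in replicate 1, at -0.01.

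Of the cyclins and kinases that act after the D cyclins (the E and A cyclins, Cdk1 and Cdk2, 6 genes in all), 5 had a mean of at least 10. Of these 5, 4 were lowest in replicate 1, Cdk2 was lowest in replicate 3, and all 5 were highest in replicate 2, against 38.1% of all genes lowest in replicate 1 and 34.2% highest in replicate 2. Ccne1 was at 13.8, 16.5 and 16.4 and Ccne2, which like it activates CDK2 at the start of S phase, at 19.5, 22.6 and 19.8. Ccna2, the cyclin of S phase and G2, was at 79.4, 92.4 and 91.1. Cdk2 was nearly level, at 36.2, 37.4 and 35.7, and Cdk1, the mitotic kinase, was at 35.1, 44.3 and 42.7. Ccna1, a cyclin of the germ line, was at 0.437, 0.714 and 0.536.

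The substrates of CDK4 and CDK6 varied little. Rb1, the retinoblastoma gene, stood at 60.1, 62.9 and 58.2, Rbl1 at 50.3, 56.2 and 52.3 and Rbl2 at 86.0, 87.8 and 82.2. All 3 pocket protein genes were highest in replicate 2, against 34.2% of all genes, with ratios of highest to lowest of at most 1.12. All 10 genes of the E2F and DP list had a mean of at least 10, and 7 of them were lowest in replicate 1, against 38.1% of all genes. By deposited values, not divided by length, the DP partners led it, Tfdp2 at 101 ± 5.87 and Tfdp1 at 89.5 ± 5.67. They were followed by E2f3 at 47.3 ± 1.31 (SD, n = 3) and the repressor E2f6, at 30.2, 31.2 and 31.5. Per kilobase of exon Tfdp2 did not lead, with Tfdp1 at 24.4, E2f3 at 8.71, Tfdp2 at 7.23 and E2f6 at 5.47. The median deviation of the list was -0.13 in replicate 1, 0.09 in replicate 2 and 0.06 in replicate 3.

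Genes that activate CDKs showed no common order over the libraries. The CDK activating kinase and its partners, Cdk7, Ccnh and Mnat1, stood at 40.4 ± 1.13, 26.8 ± 1.71 and 25.3 ± 1.07. The phosphatases Cdc25a, Cdc25b and Cdc25c, which remove inhibitory phosphates from CDKs, were at 30.3 ± 1.06, 29.7 ± 0.157 and 7.55 ± 1.08 (SD, n = 3). Of the 5 with a mean of at least 10, 1 was lowest in replicate 1, 2 in replicate 2 and 2 in replicate 3. Over all genes these shares were 38.1%, 27.8% and 34.2%. Cdkn3, a phosphatase that acts on CDKs, was low, at 2.71, 3.52 and 3.84.

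Genes that turn over cyclins and inhibitors were all measured above a mean of 10, 12 of 12. Of these, 4 were lowest in replicate 1, against 38.1% of all genes, and 5 in replicate 3, against 34.2%. By deposited values, not divided by length, Ddb1, an adaptor of CUL4 ubiquitin ligases, led at 620 ± 34.2. It was followed by Skp1, the adaptor of the SCF ligases that degrade p27 and cyclin E, at 367 ± 55.3. Cul1, the SCF scaffold, was at 138 ± 2.11 and Cul4a at 108 ± 3.52 (SD, n = 3). Per kilobase of exon the order differed, with Skp1 at 166, Ddb1 at 96.7, Cul1 at 34.1 and Cul4a at 16.9. Other genes of the list then lay above Cul4a. Skp1 appears in the table under its older symbol, Skp1a. Of the MYC family and its partners, 5 of 6 genes were highest in replicate 1, against 31.2% of all genes. Myc, known for driving Cdk4 and Ccnd2, stood at 61.6, 54.1 and 59.2, Mycn at 37.8, 28.6 and 35.7 and Mycl at 53.5, 50.6 and 45.1. Max was at 51.0, 44.7 and 49.0, and the MAX-binding repressors Mxd4 and Mxd1 at 264, 258 and 261 and at 18.9, 22.0 and 22.1. Replicate 1, highest for Myc and Mycn, was lowest for Cdk4 and Ccnd2. The ratios of highest to lowest library were 1.14 for Myc, 1.32 for Mycn, 1.15 for Cdk4 and 1.16 for Ccnd2. Any link between these levels was not tested.

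Among the cycle lists, markers of S phase and mitosis had the lowest medians in replicate 1. Of the S phase list 12 of 14 genes had a mean of at least 10, and 11 of these 12 were lowest in replicate 1, with a median deviation of -0.17 there. Pcna, the sliding clamp of replication, was at 104 ± 7.26, and the replicative helicase subunits Mcm6, Mcm4 and Mcm7 at 98.9 ± 8.51, 83.5 ± 8.89 and 60.7 ± 1.22 (SD, n = 3). Of 12 G2 and mitosis genes, 11 were lowest in replicate 1, with a median deviation of -0.20. These counts stand beside 38.1% of all genes lowest in that library, and beside macrophage and dental epithelium markers, whose medians there were -0.29 and -0.29. Mki67 was at 273 ± 33.6, Top2a at 251 ± 31.2, Cenpf at 125 ± 18.3 and Kif11 at 71.6 ± 5.77. Ccnb2, a mitotic cyclin, was at 17.2, 22.4 and 28.7 and was the only gene of the list with a ratio of at least 1.5. The D cyclins showed no such common order, since Ccnd1 was highest in replicate 1.

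Cdkn1a was read beside other genes known to respond to p53. Of 14 genes on that list 13 were listed and 11 had a mean of at least 10. Replicate 1 was lowest for 8 of these 11, as it was for Cdkn1a and for 38.1% of all genes, and the median deviation there was -0.05. Ccng1 was at 127, 145 and 138, Sesn1 at 77.5, 81.2 and 82.0, and Zmat3 at 54.8, 55.7 and 59.5, all lowest in replicate 1, whereas Plk2 was highest there, at 64.1, 56.9 and 56.1. None of the 11 had a ratio of at least 1.5.

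Marker genes of other cell types and interferon-stimulated genes also stood at different levels in the 3 libraries. Replicate 1 held the highest value of 8 of 8 interferon-stimulated genes, against 31.2% of all genes. Their summed level was 1062, 197 and 201. Replicate 1 was also the library with the highest Cdkn1c, Cdk6 and Ccnd1. It also had the largest share of ribosomal RNA and mitochondrial reads, 7.27% and 5.11%, against at most 4.98% and 4.16% in the others. All 8 mesenchyme markers had a mean of at least 10, with summed levels of 5057, 6758 and 6801, or 3300.3, 3516 and 3552 without Igfbp5. Of these 8, 5 were lowest in replicate 1, against 38.1% of all genes, and 3 (Msx1, Msx2 and Gli1) highest there, against 31.2%. A mean of at least 10 was also reached by 8 of 8 dental epithelium markers (summed levels of 798, 1271 and 964). The same held for 6 of 6 endothelial markers (323, 339 and 450.0) and 6 of 6 macrophage markers (756, 1030 and 1073). None of these markers was at 0. Of 8 odontoblast markers 7 reached a mean of 10, and the sums of the list were 18820, 10166 and 23667. A few genes carry these sums, since the highest mean was 9461 and the median of the 7 means was 287. The median deviation of these 7 was 0.20, -0.87 and 0.47. The epithelial sum was highest in replicate 2, as were Ccnd2, Cdkn1b, Cdkn2c and Cdkn2d. In all, 10 of the 15 lists with a median had their lowest median in replicate 1. The median over all genes was also lowest there, at -0.01 against 0.01 and 0.00. The count depends on scaling. With libraries rescaled by the median of the ratios of genes to their own means, the turnover list was lowest in replicate 3 instead (-0.026 against -0.019). The part of these cell types, of the interferon genes and of RNA composition in the values of the G1 genes was not tested.

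The genes most like the 3 most variable members were sought among 2105 genes with a mean of at least 100, by the distance between log2(value + 1) deviations over the 3 libraries. Nearest to Cdkn1c were Ppp1r2 (197, 141 and 123; distance 0.024), Sp6 (273, 220 and 178) and Chpt1 (205, 164 and 130), and these 3 were the only genes within a distance of 0.1. Within that distance lay 41 genes for Cdk6, led by Cd47 (145, 113 and 126), Msx1 (272, 214 and 235) and Tiam1 (126, 95.4 and 107). For Cdkn2d there were 126, led by Hbp1 (112, 138 and 122), Rev3l (134, 164 and 146) and Ptprf (157, 196 and 176). With 3 libraries many genes share an order, so these lists describe likeness only.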

How the data were processed

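RNA from 3 DKO libraries was analysed. Values are the authors' normalized signal per gene, which they call normalized counts. TopHat2 2.0.8 and the mm10 build are listed, per the submitters' processing notes. The counter used, the strand setting and any filter were not given in the sources used here. The 75th percentile was 44.7 in each column, and totals were 986401, 958773 and 966163. Whole reads could not be recovered, so no count model was used and depth is unknown. Each column was assigned to the library whose name carries the same number.

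Exon lengths came from GENCODE M21, matched by symbol, chromosome and start for 18859 of 19381 genes. Logarithms were log2(value + 1), without pseudocount per kilobase. Work was done in Python 3.11.15 with pandas 2.3.3 and was tested on simulated data. The genes named were the 10 members, all genes of lists of at most 6, the 4 highest of longer lists, list genes with a ratio of at least 1.5, and the nearest genes in pattern. Marker and interferon lists are given as counts, sums and medians. Of their genes, only Igfbp5 and the mesenchyme markers highest in replicate 1 (Msx1, Msx2 and Gli1) are named. Tspan31, LTO1, Bysl and Gm44732 are named because they overlap members. The members and the 16 lists, 130 genes of which 129 were found, were chosen with earlier results of these data known. Alternatives were other scalings, filters, pseudocounts and lengths, and leaving out each library.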

Additional observations from a re-analysis of the deposited data

How the results depend on the processing

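The count of G1 genes with a ratio of at least 1.5 was 1 under every scaling, filter and pseudocount tried (of 5 genes rather than 10 where a mean of 100 was required), and 0 to 1 with a library left out: it was 0 without replicate 1 and 0 without replicate 3. The share of all genes, 6.15%, became 1.75% without replicate 1, 4.03% without replicate 2, 3.89% without replicate 3, 31.8% when genes of any level entered, 3.90% for genes that reached a mean of 100 and 3.13% with 10 added to each value. All 8 differences within a class kept their direction under each alternative. Leaving out a library could not change a direction, since each pair was alike in 3 of 3 libraries. With a mean of 100 required, 1 gene each was left of the S phase and E2F lists, and the medians in replicate 1, -0.17 and -0.13, became -0.02 and -0.01. Neighbours ordered alike in every library numbered 7 to 9, against 8. Each alternative set its own order anew, so these counts need not cover the same pairs. Without division by length, Ccnd2 came first, Cdk6 held 14.0% of the kinase total and Cdkn2c 66.0% of the INK4 pair. Division by the longest coding transcript and rescaling without ribosomal RNA and mitochondrial genes were added after seeing the data. The cause was not tested for shifts other than those that follow from fewer libraries or from another length. No paired analysis was possible because the libraries form a single group. Groups of 3 are too small for the check for single outlying samples, so no sample was flagged. Because depth is unknown, values around 1, such as that of Cdkn2a, are the least certain.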
